A study of Homo sapiens with 24 samples.

Results

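The subject here is a set of 10 genes: the muscleblind proteins MBNL1, MBNL2 and MBNL3, the polypyrimidine tract-binding proteins PTBP1, PTBP2 and PTBP3, and RBFOX2, QKI, CELF1 and RBM47. They were listed by name, as RNA-binding proteins that set alternative splicing in a tissue-dependent way, and their gene totals and main transcripts were followed over all groups. These are 10 of the 57721 genes obtained by summing the transcript estimates, and all 10 passed the filter on low counts that left 24153 genes for testing. On hg38 the genes lie at chr3:152243828-152465780 (MBNL1), chr13:97221434-97394120 (MBNL2), chrX:132369317-132489968 (MBNL3), chr19:797075-812327 (PTBP1), chr1:96721665-96823738 (PTBP2), chr9:112217716-112333667 (PTBP3), chr22:35738736-36028425 (RBFOX2), chr6:163414000-163578596 (QKI), chr11:47465933-47565569 (CELF1) and chr4:40423267-40630875 (RBM47). Of their 149 annotated transcripts, 114 passed the corresponding transcript filter.

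All samples were HCT116 cells, an established human colon cancer line, at passages 12 to 18, and 3 RNA-seq libraries were deposited for each of 8 groups. The 4 untransfected groups were wild type, TNRC6A-/-, TNRC6B-/-, and the double knockout TNRC6AB-/-. The other 4 groups were transfected with Lipofectamine RNAiMAX: wild type or TNRC6AB-/- cells that received either siGL2, a control duplex, or siTNRC6C, a pool of siRNAs against TNRC6C. Each knockout was bought as a single line, so that the effect of a genotype and of the line that carries it cannot be told apart, and TNRC6AB-/- cells were seeded more densely for transfection. TNRC6A was disrupted by a frameshifting point mutation and TNRC6B by a large deletion. Whether the libraries of 1 group stem from separate cultures is not given in the sources used here, and p-values therefore measure only the spread between these libraries, which may be technical. Libraries held 28144290 to 42689320 estimated reads, with a median of 34465674.

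An alternative exon is included or skipped according to the RNA-binding proteins that sit on and beside it. MBNL proteins favour the splicing patterns of differentiated tissue and CELF1 often acts on the same exons in the opposite direction. PTBP1 represses neural exons in most cells, among them an exon of its neural paralog PTBP2 whose skipping sends that mRNA to decay, while RBFOX2, QKI and RBM47 act on exons that differ between epithelial and mesenchymal cells. Many of these proteins also control exons in their own mRNAs. The TNRC6 proteins are scaffolds that join Argonaute-bound microRNAs to the factors that silence target mRNAs, so each comparison asks how the levels and the transcript forms of splicing regulators stood when those scaffolds were reduced.

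The exons on which the splicing results below turn are shown first. Each line gives the last 12 bases of the upstream exon in lower case and the first 18 bases of the alternative exon in capitals, in the orientation of the mRNA, from GENCODE 29 transcripts on hg38. The 54-nt exons of MBNL1 (chr3:152446704-152446757, plus strand) and MBNL2 (chr13:97356796-97356849, plus strand) were identical at 45 of 54 aligned bases (83.3%). The 57-nt (chr19:805513-805569) and 78-nt (chr19:805492-805569) exons of PTBP1 end at the same base on the plus strand, the longer one carrying 21 extra bases at its 5′ end. RBFOX2 has a 40-nt exon (chr22:35756105-35756144, minus strand), PTBP2 the 34-nt exon at chr1:96806419-96806452 (plus strand), and NUMB, which encodes an inhibitor of Notch signalling, an exon at chr14:73279281-73279424 (minus strand) known as a target of RBFOX2, QKI and PTBP1.
MBNL1 54-nt exon: gcagctgccatgACTCAGTCGGCTGTCAAA
MBNL2 54-nt exon: gccacagtcatgACTCAGTCGACTGCCAAA
PTBP1 57-nt exon: ccgcggccttcgCCTCTCCGTATGCAGGAG
PTBP1 78-nt exon: ccgcggccttcgGTGCACCTGGTATAATCT
RBFOX2 40-nt exon: cgcctatccaggTGTGGTTTACCAGGACGG
PTBP2 34-nt exon: ttaaatgaagagATGGTTACGCCCCAAAGT
NUMB alternative exon: ctaccttccaagCTAATGGCACTGACTCAG
The 54-nt, 57-nt and 78-nt exons and the NUMB exon keep the reading frame, whereas the 40-nt and 34-nt exons leave a remainder of 1 base after division by 3.

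Because TNRC6 proteins act with microRNAs, the 3′ untranslated regions (3′UTRs) of the 10 genes were also searched for the 7-base sites of 12 conserved or epithelial microRNA families, on the mRNA strand, counting overlapping matches. The longest annotated 3′UTR of each gene was used, and these regions were long, with a median of 5797 bases in the 10 genes against 1334 bases in 15063 tested genes. For RBFOX2, CELF1 and RBM47 that region belonged to the main transcript by mean TPM. For the other members it came from another transcript, and whether its sites lie in the main forms expressed here was not examined. The regions of the 10 genes held 71 sites in all, from 1 in PTBP1 to 13 in MBNL3, or 0.666 to 1.94 sites per kilobase. The 3′UTRs of all tested genes, pooled into 1 total of sites and bases, held 1.36 per kilobase. No member held the let-7 site CTACCTC, which is found in 11% of all 3′UTRs. The site CAGTATT of the miR-200b/c family lay in 7 members and in 18.3% of all 3′UTRs, AATGTGA of miR-23 in 7 members and 20.5%, TTTGCAC of miR-19 in 6 members and 15.2%, and TGTTTAC of miR-30 in 5 members and 17.5%. Of these families 3 microRNAs (RefSeq, GRCh38.p14) are printed with bases 2 to 8, the seed, in capitals. Each is followed by some of the 3′UTR sites (GENCODE 29, hg38) of members called higher in some comparison below. The 7 bases opposite the seed are in capitals, with an A after them in every case. Sites also lay in members never called higher. The miR-200b/c site lay in RBM47 and PTBP1, both called lower in some comparison, and in PTBP3, and the miR-30 and miR-19 sites lay in PTBP2.
hsa-miR-200b-3p: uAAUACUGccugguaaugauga
QKI, chr6:163573223-163573252, plus strand: gccttggttctCAGTATTatcattctttat
QKI, chr6:163573291-163573320, plus strand: tttttttctgaCAGTATTatgtaatttttt
CELF1, chr11:47470932-47470961, minus strand: ttcatttacctCAGTATTaccgtgttcatt
hsa-miR-30a-5p: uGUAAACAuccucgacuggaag
MBNL3, chrX:132379245-132379274, minus strand: ccttactatttTGTTTACaagatagtctat
hsa-miR-19b-3p: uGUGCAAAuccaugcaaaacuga
RBFOX2, chr22:35738767-35738796, minus strand: ctgcctcagccTTTGCACatggtaatgaag
A match to these letters is a description of the sequence, and no microRNA was measured in these libraries.

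The targeted genes followed the labels in CPM. TNRC6A fell from a mean of 111 CPM (counts scaled to the library total, adjusted by the trimmed mean of M-values) in wild type to 68.6 CPM in TNRC6A-/- and 51.0 CPM in TNRC6AB-/-. TNRC6B fell from 192 CPM to 120 CPM in TNRC6B-/- and 93.1 CPM in TNRC6AB-/-, and TNRC6C fell from 53.7 to 21.0 CPM with siTNRC6C in wild type and from 120 to 19.7 CPM in TNRC6AB-/- cells. Against wild type siGL2 (129 CPM), TNRC6A stood at 67.3 CPM in TNRC6AB-/- siGL2 and 78.6 CPM in TNRC6AB-/- siTNRC6C. On length-scaled counts it was not called in either (edgeR adjusted p = 0.0518 and 0.680), while TNRC6B was called lower in both. TNRC6B was called higher in TNRC6A-/- (272 CPM), and TNRC6C in TNRC6AB-/- (95.1 against 50.3 CPM). The 8 epithelial marker genes summed to 1147 to 2684 CPM per library, mostly from keratins and EPCAM, while the intestinal markers VIL1 and CDX1 were near 0 (means of 0.205 and 0.00551 CPM). The 4 fibroblast markers summed to 55.5 to 93.2 CPM in TNRC6AB-/- against 22.7 to 30.6 CPM in wild type, and to 35.1 to 39.7 CPM in TNRC6AB-/- siGL2 and 54.1 to 57.9 CPM in TNRC6AB-/- siTNRC6C against 18.3 to 23.2 CPM in wild type siGL2. The 4 neuron markers summed to 149 to 314 CPM over all libraries. They were higher without overlap in TNRC6A-/- (239 to 276 CPM) than in wild type (172 to 230 CPM), and in TNRC6AB-/- siGL2 (207 to 243 CPM) and TNRC6AB-/- siTNRC6C (242 to 244 CPM) than in wild type siGL2 (180 to 204 CPM). The part of these markers in the results was not tested. Most untransfected replicates lay farther apart than transfected ones, with a chi-square per gene between replicate pairs of 13.4 to 102 against 2.73 to 19.1. The TNRC6A-/- pairs, at 13.4 to 16.9, lay within the range of the wild type siGL2 pairs (3.89 to 19.1). In such bulk samples, fewer cells of a type and less RNA per cell cannot be told apart.

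All 10 regulators were detected in every library. Ordered by length-corrected level in TPM (transcript abundance scaled to a fixed total per library), PTBP1 ranged over the 24 libraries from 59.2 to 145 TPM, MBNL1 from 51.5 to 135, CELF1 from 32.8 to 91.7 and RBFOX2 from 31.6 to 99.7. MBNL2 lay between 24.5 and 67.5 TPM, PTBP3 between 19.2 and 37.8 and QKI between 12.8 and 46.6. PTBP2 (6.07 to 18.1 TPM), RBM47 (2.85 to 7.28) and MBNL3 (0.695 to 6.69) were the low members. The ranges of neighbours in this order overlap. TPM ratios between groups carry a shift common to all genes, since the median gene's ratio was 1.30 for TNRC6AB-/- siGL2 over wild type siGL2 and 1.53 for TNRC6AB-/- siTNRC6C over wild type siGL2, so changes below are given in CPM.

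Across the 8 groups, 9 of the 10 members differed by the edgeR quasi-likelihood F test at an adjusted p below 0.05, beside 68.6% of all genes tested. PTBP2 was the exception, with an edgeR adjusted p of 0.330. The span between the highest and the lowest group mean was 5.75-fold for MBNL3, 2.23-fold for RBM47, 2.18-fold for QKI, 2.10-fold for RBFOX2 and 1.94-fold for MBNL2 on the CPM scale. It was between 1.39-fold and 1.55-fold for PTBP2, PTBP1, CELF1, MBNL1 and PTBP3. The levels of all members in all libraries are plotted by group.

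**Figure D1:**
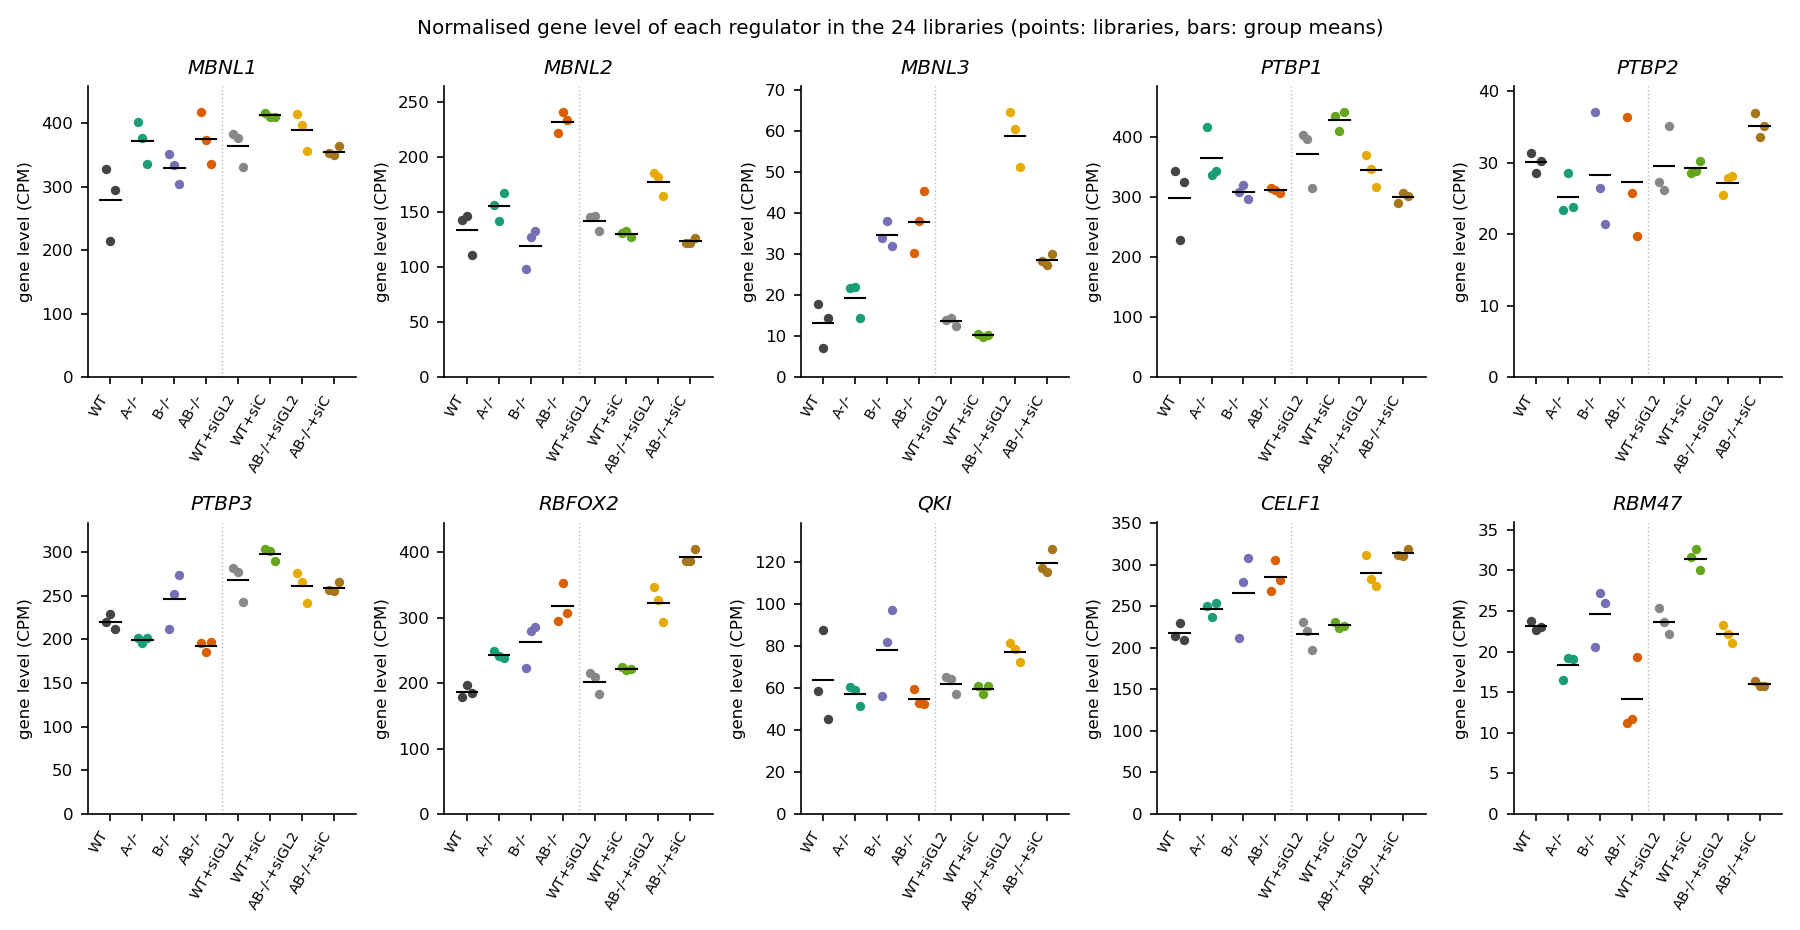
Level of the 10 splicing regulators in each of the 24 libraries, in CPM (vertical axis, from 0), by group (horizontal axis; WT, wild type; A, B and AB, TNRC6A, TNRC6B and TNRC6AB; siC, siTNRC6C). Points are libraries and bars are group means (n = 3): MBNL3 was highest in TNRC6AB-/- siGL2 (51.3 to 64.5 CPM), and RBFOX2 (387 to 405 CPM) and QKI (115 to 126 CPM) in TNRC6AB-/- siTNRC6C.

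In TNRC6AB-/- cells, 5 members rose and 1 fell against wild type, and all MBNL genes were among those that rose. MBNL3, the least expressed muscleblind gene, rose 2.87-fold, MBNL2 1.74-fold and RBFOX2 1.70-fold, while RBM47 fell to 0.609 of its wild-type level. The PTBP genes and QKI did not pass the test. This comparison asks what loss of 2 of the 3 TNRC6 scaffolds does to these mRNAs. Transcripts of up to 400 nt held 51.6 to 64.2% of TPM in the TNRC6AB-/- libraries, 52.9 to 62.7% in TNRC6B-/- and 50.4 to 52.8% in TNRC6A-/-, against 47.9 to 51.5% in wild type, and the part of this share in the results was not tested.

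MBNL3 stood at 17.9, 7.26 and 14.4 CPM in the 3 wild-type libraries and at 30.2, 38.1 and 45.5 CPM in TNRC6AB-/- (log2 fold change 1.52 ± 0.21 SE, edgeR adjusted p = 7.64e-06). The groups did not overlap, although wild-type replicate 2 was low. MBNL2 went from 143, 147 and 112 CPM to 222, 241 and 234 CPM (log2 fold change 0.79 ± 0.11, edgeR adjusted p = 7.05e-06). Each of the TNRC6AB-/- libraries exceeded each wild-type library. MBNL1, the most abundant muscleblind gene, rose less, from 328, 214 and 295 CPM to 417, 375 and 337 CPM (log2 fold change 0.43 ± 0.12, edgeR adjusted p = 0.00984). Wild-type replicate 2 was the low library here, and without it the log2 fold change was 0.27 with an edgeR adjusted p of 0.0692. Without TNRC6AB-/- replicate 1 the edgeR adjusted p was 0.0527.

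RBFOX2 had 179, 196 and 185 CPM in wild type and 295, 353 and 307 CPM in TNRC6AB-/- (log2 fold change 0.77 ± 0.10, edgeR adjusted p = 2.88e-06), and the groups did not overlap. CELF1, which binds GU-rich RNA and also promotes mRNA decay, had 214, 230.0 and 209.8 CPM and 269, 305 and 281 CPM (log2 fold change 0.39 ± 0.11, edgeR adjusted p = 0.00751). Its groups did not overlap, and without TNRC6AB-/- replicate 2 the edgeR adjusted p was 0.0750. RBM47, an epithelial RNA-binding protein, was the member that fell, from 23.7, 22.7 and 23.1 CPM to 11.3, 11.7 and 19.4 CPM (log2 fold change -0.71 ± 0.15, edgeR adjusted p = 0.000620). TNRC6AB-/- replicate 3 lay nearest to wild type.

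PTBP1 did not pass the test in TNRC6AB-/- cells (311 against 299 CPM, edgeR adjusted p = 0.778), nor did PTBP3 (193 against 220 CPM, edgeR adjusted p = 0.125), PTBP2 (27.3 against 30.1 CPM, edgeR adjusted p = 0.624) or QKI (54.9 against 63.9 CPM, edgeR adjusted p = 0.397). The 6 calls stand beside 29.4% of all genes called in this comparison, 17.2% higher and 12.3% lower. The median log2 fold change of the 10 members was 0.22, against 0.01 for all genes. When only the 6 libraries compared entered the model, MBNL1 (edgeR adjusted p = 0.164) and CELF1 (edgeR adjusted p = 0.103) were no longer called.

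Single knockouts moved fewer members. In TNRC6B-/- cells MBNL3 and RBFOX2 rose, and in TNRC6A-/- cells MBNL1 and RBFOX2 rose; no member fell in either line. These 3 knockout lines share the wild-type libraries as controls. The RBFOX2 calls in both single knockouts were lost with length-scaled counts (edgeR adjusted p = 0.112 in TNRC6A-/-), where MBNL1 and PTBP1 were called in TNRC6A-/- and MBNL3 alone in TNRC6B-/-, and the call in TNRC6B-/- was also lost under limma voom. In TNRC6AB-/- RBFOX2 was called with each of these. These comparisons ask what loss of 1 scaffold does.

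In TNRC6B-/- cells MBNL3 reached 34.04, 38.0 and 32.03 CPM, above the 17.9, 7.26 and 14.4 CPM of wild type (log2 fold change 1.39 ± 0.21, edgeR adjusted p = 0.000350). RBFOX2 had 223, 279.6 and 285 CPM in the same cells (log2 fold change 0.49 ± 0.10, edgeR adjusted p = 0.00533), with replicate 1 nearest to wild type. These 2 calls stand beside 3.14% of all genes, 2.20% higher and 0.940% lower, and the median of the members was 0.20 on the log2 scale against 0.04 for all genes. In the fit of the 6 compared libraries neither was called (edgeR adjusted p = 0.161 for MBNL3 and 0.563 for RBFOX2). CELF1 had 211, 279 and 309 CPM and was called only without TNRC6B-/- replicate 1 (edgeR adjusted p = 0.00658, against 0.163 with it), and QKI, at 56.1, 81.8 and 97.2 CPM beside 58.5, 87.6 and 45.5 CPM in wild type, only without wild-type replicate 2 (edgeR adjusted p = 0.0399).

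In TNRC6A-/- cells RBFOX2 had 249.8, 242 and 238 CPM, all above the wild-type libraries (log2 fold change 0.38 ± 0.10, edgeR adjusted p = 0.0121), and without wild-type replicate 1 its edgeR adjusted p was 0.0514. MBNL1 had 402, 377 and 336 CPM (log2 fold change 0.41 ± 0.12, edgeR adjusted p = 0.0267). That call was lost without wild-type replicate 2 (edgeR adjusted p = 0.138), TNRC6A-/- replicate 1 (0.115) or TNRC6A-/- replicate 2 (0.0712), and neither gene was called from the 6 compared libraries. MBNL3 was not called here at 21.8, 22.0 and 14.6 CPM (edgeR adjusted p = 0.0845), but was without wild-type replicate 1 (0.0153) or TNRC6A-/- replicate 3 (0.0410). The 2 calls stand beside 14.0% of all genes, 8.52% higher and 5.47% lower, and the members' median log2 fold change was 0.20 against 0.02.

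MBNL2 moved differently in the single and double knockouts. It had 156, 142 and 167.2 CPM in TNRC6A-/- and 98.1, 127 and 133 CPM in TNRC6B-/-, ranges that overlap the wild-type libraries, against 222 to 241 CPM in TNRC6AB-/-. The TNRC6AB-/- effect exceeded the sum of the single-knockout effects by 0.74 ± 0.16 (SE) on the log2 scale (edgeR adjusted p = 0.00328). Of the 10 members it was the one called for that difference, beside 7.75% of all genes.

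**Figure D2:**
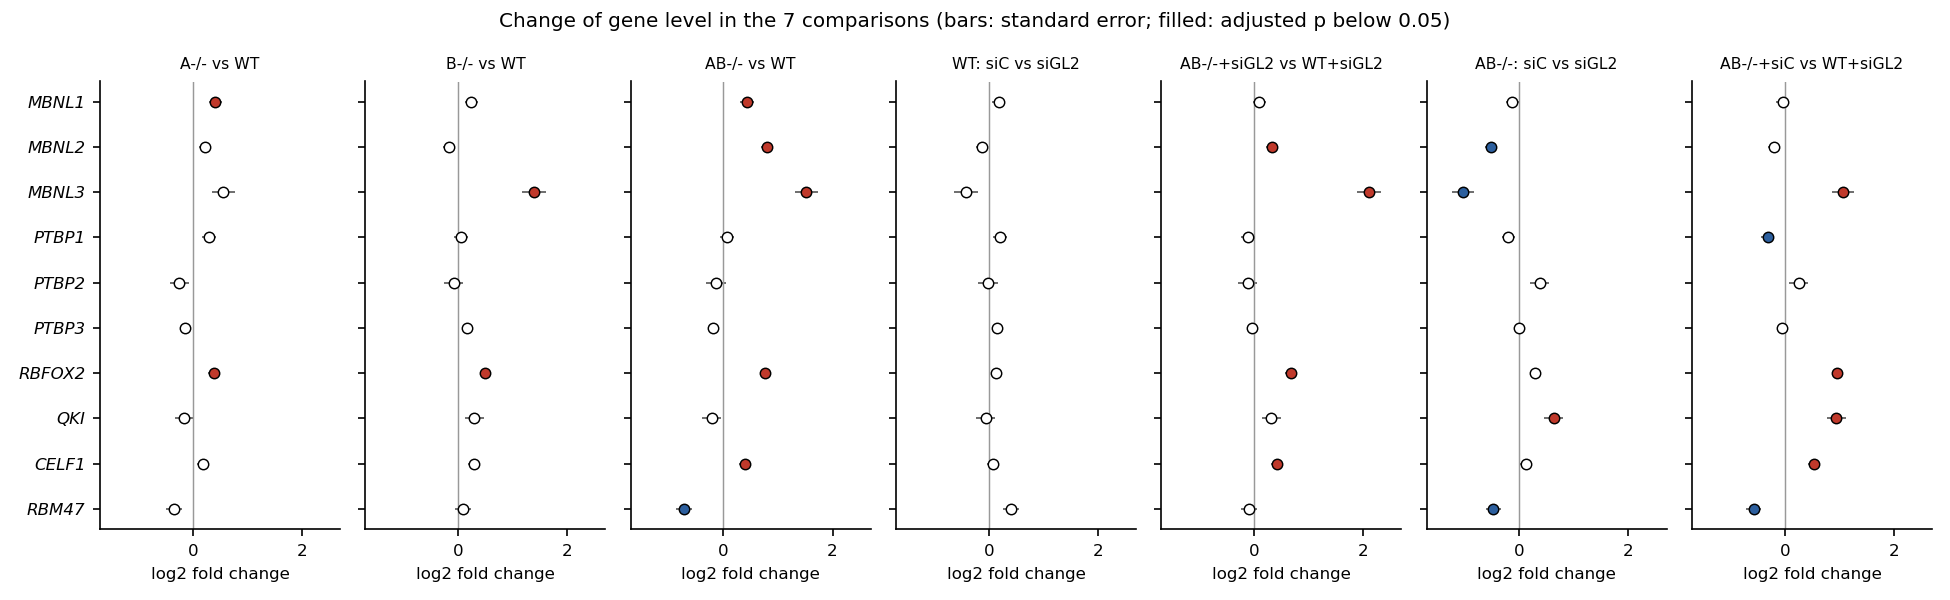
Log2 fold change (horizontal axis) with SE of the 10 members in the 7 comparisons, from edgeR on 24 libraries. Red points were called higher, blue lower and white not called at an adjusted p below 0.05: RBFOX2 was called higher in 5 of the 7 comparisons, PTBP2 and PTBP3 in none.

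Transfected TNRC6AB-/- cells carried the same 2 knockouts in the presence of a control duplex, and 4 members rose against wild type siGL2: MBNL3, RBFOX2, CELF1 and MBNL2. None fell. MBNL3 showed the largest change of any member in any comparison, 4.30-fold.

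MBNL3 had 13.9, 14.5 and 12.6 CPM in wild type siGL2 and 64.5, 60.5 and 51.3 CPM in TNRC6AB-/- siGL2 (log2 fold change 2.10 ± 0.21, edgeR adjusted p = 1.55e-07). The lowest knockout library was more than 3 times the highest control library. RBFOX2 went from 215, 209 and 183 CPM to 346, 327 and 294 CPM (log2 fold change 0.67 ± 0.10, edgeR adjusted p = 2.83e-05). CELF1 went from 231, 221 and 197 CPM to 312, 283 and 275 CPM (log2 fold change 0.42 ± 0.11, edgeR adjusted p = 0.00557). Neither gene's groups overlapped. MBNL2 went from 146, 146 and 133 CPM to 186, 182 and 164 CPM (log2 fold change 0.32 ± 0.11, edgeR adjusted p = 0.0369).

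The MBNL2 call was lost on length-scaled counts (edgeR adjusted p = 0.178) and without TNRC6AB-/- siGL2 replicate 1 (0.124), TNRC6AB-/- siGL2 replicate 2 (0.113) or any 1 of the 3 wild type siGL2 libraries (0.0588 to 0.116). MBNL1, with 415, 398 and 357 CPM against 384, 378 and 331 CPM, overlapped its control and was not called (edgeR adjusted p = 0.647). RBM47, lower in untransfected TNRC6AB-/- cells, had 23.3, 22.2 and 21.1 CPM against 25.3, 23.6 and 22.2 CPM (edgeR adjusted p = 0.713). The difference between its effects with and without transfection was 0.62 ± 0.20 on the log2 scale and did not pass the test (edgeR adjusted p = 0.0614), though it did under DESeq2 (adjusted p = 0.0357), with limma voom, without the count filter and without TNRC6AB-/- replicate 3 (0.000723). No member was called for that difference by edgeR, beside 8.72% of all genes, with 3 of 10 at an unadjusted p below 0.05 and 2 called by DESeq2 and by limma voom. The 4 calls against wild type siGL2 stand beside 21.7% of all genes, 9.17% higher and 12.5% lower, and the members' median log2 fold change was 0.21 against -0.00319.

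Adding siTNRC6C to TNRC6AB-/- cells moved members in both directions: QKI rose, and MBNL2, MBNL3 and RBM47 fell against TNRC6AB-/- siGL2. MBNL3 thus came down from its highest level without reaching that of wild type. This comparison asks what the further loss of TNRC6C does once TNRC6A and TNRC6B are absent.

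QKI, which binds RNA through a STAR domain and is known for muscle, glial and mesenchymal splicing, had 81.4, 78.5 and 72.3 CPM in TNRC6AB-/- siGL2 and 117.1, 115 and 126 CPM with siTNRC6C (log2 fold change 0.63 ± 0.17, edgeR adjusted p = 0.0321). The groups were far apart, yet leaving out any 1 of the 6 libraries gave an edgeR adjusted p between 0.0819 and 0.114. MBNL3 went from 64.5, 60.5 and 51.3 CPM to 28.4, 27.4 and 30.1 CPM (log2 fold change -1.04 ± 0.21, edgeR adjusted p = 0.00413). MBNL2 went from 186, 182 and 164 CPM to 122, 122 and 127 CPM (log2 fold change -0.52 ± 0.11, edgeR adjusted p = 0.00677). Every library with siTNRC6C lay below every siGL2 library for both genes.

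RBM47 went from 23.3, 22.2 and 21.1 CPM to 16.4, 15.7 and 15.8 CPM (log2 fold change -0.48 ± 0.14, edgeR adjusted p = 0.04996, just under the threshold). The groups did not overlap, but the call was lost on length-scaled counts (edgeR adjusted p = 0.261), with the replicate number as a block (0.0599) and without any 1 of the 6 libraries (0.0693 to 0.188). RBFOX2 had 387, 387 and 405 CPM against 346, 327 and 294 CPM without overlap, and was not called (edgeR adjusted p = 0.0834; DESeq2 adjusted p = 0.0382). The 4 calls stand beside 6.56% of all genes, 2.19% higher and 4.37% lower. Fitted on the 6 compared libraries alone, where the spread was that of transfected cells, 8 members were called, adding PTBP2 and RBFOX2 and CELF1 as higher and PTBP1 as lower. The share of all genes called in that fit is not given here, so the 6.56% does not serve as its background. The members' median was -0.07 against -0.02 for all genes.

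In wild-type cells siTNRC6C called no member by edgeR, beside 0.932% of all genes (0.397% higher and 0.534% lower), with 1 member at an unadjusted p below 0.05. That member was RBM47, at 25.3, 23.6 and 22.2 CPM with siGL2 and 31.6, 32.6 and 30.1 CPM with siTNRC6C (log2 fold change 0.41 ± 0.14, edgeR adjusted p = 0.191). DESeq2 called none, limma voom with a spread per group called RBM47 (adjusted p = 0.00940), and edgeR on the 6 compared libraries called RBM47 (adjusted p = 0.00204) and MBNL3, which had 10.6, 9.81 and 10.2 CPM against 13.9, 14.5 and 12.6 CPM (adjusted p = 0.00257). RBM47 thus stood higher with siTNRC6C in wild type and lower with siTNRC6C in TNRC6AB-/- cells, and the effect in TNRC6AB-/- minus that in wild type was -0.88 ± 0.20 on the log2 scale (edgeR adjusted p = 0.0206). It was 1 of 10 members called for that difference, beside 3.03% of all genes. The edgeR adjusted p of that difference was 0.143 on length-scaled counts, and it was 0.0531 to 0.0718 when the library left out was any TNRC6AB-/- siTNRC6C library, TNRC6AB-/- siGL2 replicate 1 or 2, wild type siTNRC6C replicate 1 or 2, or wild type siGL2 replicate 3.

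Against wild type siGL2, cells lacking TNRC6A and TNRC6B and treated with siTNRC6C differed in 6 members. RBFOX2 was 1.94 times the control level, QKI 1.92 times, MBNL3 2.10 times and CELF1 1.45 times, while RBM47 was 0.673 times and PTBP1 0.805 times. This is the comparison in which all 3 TNRC6 genes were targeted, and it shares its control libraries with the siGL2 comparison above.

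RBFOX2 was at 215, 209 and 183 CPM in the control and at 387, 387 and 405 CPM (log2 fold change 0.96 ± 0.10, edgeR adjusted p = 9.71e-08), the highest level of any group. QKI was at 65.2, 64.1 and 57.1 CPM and 117.1, 115 and 126 CPM (log2 fold change 0.94 ± 0.17, edgeR adjusted p = 0.000146). No library of another group reached 115 CPM of QKI. MBNL3 was at 13.7 CPM in the control and 28.7 CPM on average (log2 fold change 1.07 ± 0.21, edgeR adjusted p = 0.000286). CELF1 reached 312, 310.3 and 319 CPM (log2 fold change 0.54 ± 0.11, edgeR adjusted p = 0.000308). RBM47 was at 15.96 CPM against 23.7 CPM on average (log2 fold change -0.57 ± 0.14, edgeR adjusted p = 0.00293).

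PTBP1 had 289.8, 308 and 302 CPM against 403, 397 and 316 CPM (log2 fold change -0.31 ± 0.12, edgeR adjusted p = 0.0474). All 3 libraries lay below the control, but the call was lost under DESeq2 (adjusted p = 0.0632), on length-scaled counts (0.194), and without wild type siGL2 replicate 1 (0.190) or 2 (0.159) or any TNRC6AB-/- siTNRC6C library (0.0807 to 0.129). MBNL2, at 122, 122 and 127 CPM against 146, 146 and 133 CPM, was not called (edgeR adjusted p = 0.158). The 6 calls stand beside 42.2% of all genes, 17.0% higher and 25.2% lower, and the members' median was 0.11 against 0.01.

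PTBP3 passed no pairwise test although it differed among the 8 groups (edgeR adjusted p = 1.94e-05). Its untransfected libraries lay between 186 and 274 CPM and its transfected ones between 242 and 304 CPM, a contrast for which no comparison was fitted. PTBP2 varied from 19.7 to 37.1 CPM over all libraries and was highest on average in TNRC6AB-/- siTNRC6C, at 37.0, 33.6 and 35.1 CPM beside 25.6, 27.9 and 28.1 CPM in TNRC6AB-/- siGL2 (edgeR adjusted p = 0.199).

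The main transcripts were then compared as shares of the reads of their gene. The uncertainty of assigning reads to overlapping transcripts was not available, and the p-values of shares and of exon inclusion leave it out. By mean TPM the main transcripts were MBNL1-204, MBNL2-201, MBNL3-205, PTBP1-201, PTBP3-205, RBFOX2-205, CELF1-204 and RBM47-202, all annotated as protein-coding, and QKI-204, annotated as a target of nonsense-mediated decay. For PTBP2 it was PTBP2-206, a noncoding transcript of 365 nt. It held 31.0% of the gene's TPM but 2.96% of its reads, since longer transcripts yield more reads and TPM corrects for length. PTBP3-205 held 88.4% of the reads of PTBP3 and 78.6% of its TPM over all libraries, so this gene was made mostly of 1 form. RBFOX2-205 held 84.8% of the reads of RBFOX2 but 47.3% of its TPM, beside 15.4% of TPM for RBFOX2-209. RBM47-202 held 35.5% of RBM47 reads and shared the gene with several coding forms.

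TNRC6A-/- cells differed most from wild type in transcript usage: 12 of the 114 member transcripts, from 6 genes, were called by edgeR, beside 3.77% of all transcripts tested. PTBP1-203, a form with the 78-nt exon, held 31.3, 28.5 and 26.7 percent of PTBP1 reads in the wild-type libraries and 9.45, 13.6 and 10.2 percent in TNRC6A-/- (log2 change in share -1.38 ± 0.15, edgeR adjusted p = 1.95e-05). PTBP1-202, which contains the same exon, moved the other way, from 6.41, 7.06 and 10.6 to 29.9, 25.5 and 26.1 percent (log2 change 1.76 ± 0.27, edgeR adjusted p = 0.000694). The groups were separated by more than 10 percentage points for both. PTBP1-204, the form with the 57-nt exon, rose from 1.45, 1.57 and 2.77 to 5.68, 5.08 and 7.36 percent (edgeR adjusted p = 0.00153).

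CELF1-201 fell from 24.6, 19.4 and 22.7 to 13.4, 14.9 and 14.1 percent of CELF1 reads in TNRC6A-/- (log2 change -0.65 ± 0.07, edgeR adjusted p = 1.37e-05), and the main form CELF1-204 rose from 60.3, 64.1 and 62.9 to 70.7, 67.6 and 69.7 percent (edgeR adjusted p = 0.0207). MBNL1-204 rose from 40.4, 34.01 and 39.6 to 50.4, 44.5 and 44.9 percent (edgeR adjusted p = 0.0185), and MBNL1-206 was listed at 0 in all 3 TNRC6A-/- libraries against 5.30, 3.18 and 4.57 percent in wild type. MBNL2-206, a form with the 54-nt exon, rose from 17.7, 20.02 and 16.2 to 29.6, 28.1 and 27.0 percent (edgeR adjusted p = 0.0164). The remaining calls were CELF1-203, MBNL2-203, QKI-210 and PTBP2-201, the last resting on wild-type replicate 1, where alone it was above 0 among these 6 libraries (14.8 percent). PTBP2-201 held 15.6 to 19.8 percent of PTBP2 reads in TNRC6B-/- and 24.3 to 45.3 percent in TNRC6AB-/-, and without wild-type replicate 1 it was called higher in both (edgeR adjusted p = 7.08e-06 and 1.86e-06). Of the 12 calls, those of MBNL1-204, MBNL2-206, MBNL2-203, PTBP2-201, QKI-210 and CELF1-204 were each lost without at least 1 of the 6 libraries. With limma on TPM shares, MBNL1-204, MBNL2-203, PTBP2-201, QKI-210 and CELF1-204 were not called (limma adjusted p 0.0763 to 0.419). In the fit of the 6 compared libraries, the calls of MBNL1-204, MBNL2-203, QKI-210, CELF1-204 and PTBP1-204 were lost. The fragment length implied by the difference between annotated and effective transcript lengths was 164 to 171 nt in TNRC6A-/- and 181 to 189 nt in wild type, without overlap, and its part in these transcript results was not tested.

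Fewer shares were called elsewhere. In TNRC6AB-/- 3 member transcripts were called (0.620% of all transcripts): MBNL1-204 rose to 45.6, 49.4 and 51.5 percent (edgeR adjusted p = 0.0142), RBFOX2-205 rose from 81.8, 81.0 and 82.7 to 84.5, 87.1 and 87.2 percent (edgeR adjusted p = 0.0304), and PTBP2-202 fell from 31.5, 36.1 and 47.4 to 18.6, 16.3 and 6.66 percent (edgeR adjusted p = 0.0322). None of the 3 was called from the 6 compared libraries alone, and each was also lost without wild-type replicate 2 (edgeR adjusted p 0.0672 to 0.133). In TNRC6B-/- the single call was CELF1-203 (0.0534% of all transcripts), which held at most 0.802% of CELF1 reads there, was listed at 0 in wild type, and was lost without any 1 wild-type library (edgeR adjusted p 0.0834 to 0.0906).

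In TNRC6AB-/- siGL2 against wild type siGL2, the 3 called member transcripts were all of CELF1. CELF1-201 held 28.6, 26.4 and 28.0 percent of CELF1 reads in wild type siGL2 and 20.9, 20.5 and 21.2 percent in TNRC6AB-/- siGL2 (log2 change -0.41 ± 0.07, edgeR adjusted p = 0.00732). With siTNRC6C it held 18.6, 19.3 and 20.5 percent (log2 change against wild type siGL2 -0.51 ± 0.07, edgeR adjusted p = 0.000425). CELF1-204 rose from 59.3, 61.4 and 59.9 percent to 67.8, 67.1 and 67.2 and 69.1, 67.8 and 67.8 percent (edgeR adjusted p = 0.0417 and 0.00779). The CELF1 total rose in the same comparisons, so that the reads of CELF1-204 rose by more than the total did.

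The siGL2 call of CELF1-204 was lost without any 1 of the 6 libraries (edgeR adjusted p 0.0899 to 0.189). On the TPM shares tested with limma, CELF1-204 was not called in either comparison (adjusted p = 0.922 and 0.730) and CELF1-201 was called against wild type siGL2 for siTNRC6C alone (0.00942, and 0.0674 for siGL2). CELF1-207 was the third member transcript called with siGL2, beside 0.636% of all transcripts. With siTNRC6C the 5 calls, beside 3.40% of all transcripts, also included PTBP1-201, which fell from 50.4, 51.8 and 45.4 to 41.0, 41.7 and 41.95 percent (edgeR adjusted p = 0.0351, a call lost with limma on TPM shares, in the fit of the 6 compared libraries and without any 1 of them other than wild type siGL2 replicate 3), RBFOX2-209, which contains the 40-nt exon and fell from 4.25, 5.11 and 5.08 to 3.17, 3.05 and 3.20 percent (edgeR adjusted p = 0.00762), and MBNL1-220, which contains the 54-nt exon and fell from 4.26, 4.92 and 4.66 to 1.30, 2.19 and 1.29 percent (edgeR adjusted p = 0.000825). No member transcript was called by edgeR for siTNRC6C in wild type (5 at an unadjusted p below 0.05, 0.00697% of all transcripts called) or in TNRC6AB-/- against siGL2 (10 unadjusted, 0.0453% called), and limma called none in either.

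**Figure D3:**
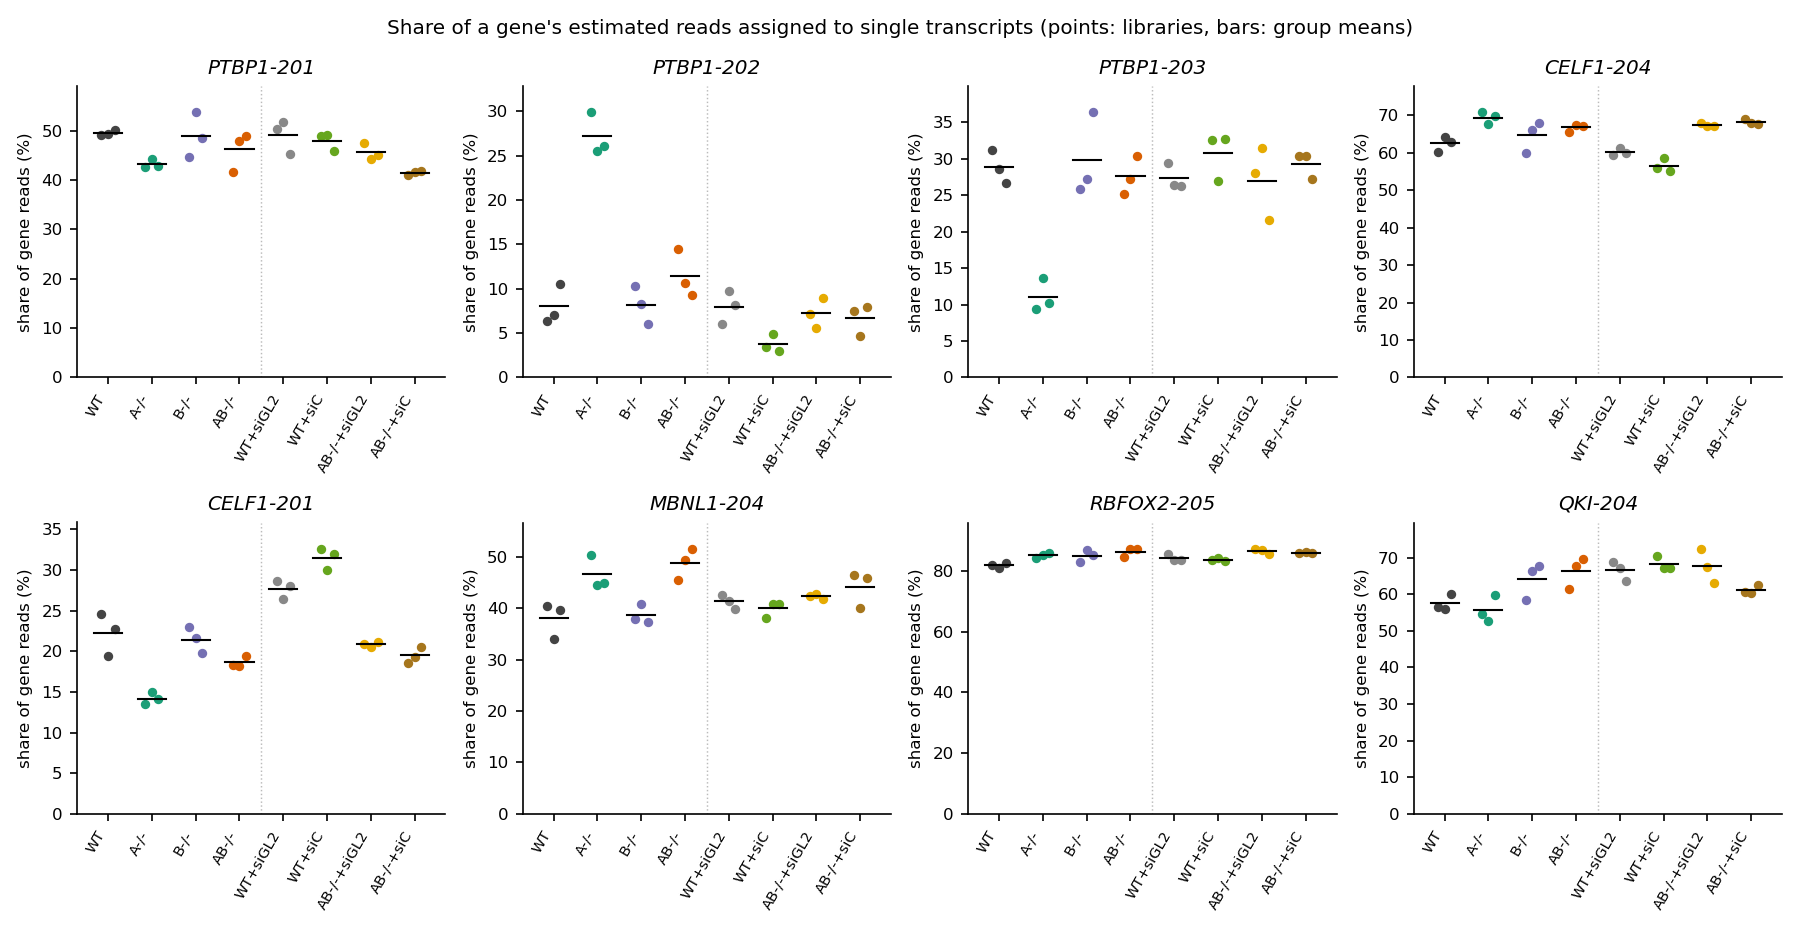
Share of the reads of their gene (vertical axis, percent, from 0) held by 8 member transcripts in each library, by group (horizontal axis). Points are libraries and bars group means (n = 3): PTBP1-203 was at 9.45 to 13.6% in TNRC6A-/- and at 21.5 to 36.4% in every other library, and CELF1-201 fell from 26.4 to 28.6% in WT siGL2 to 18.6 to 20.5% in AB-/- siC.

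QKI-204 held 56.4, 56.0 and 60.03 percent of QKI reads in wild type, 72.3, 67.3 and 63.1 percent in TNRC6AB-/- siGL2 and 60.7, 60.4 and 62.6 percent in TNRC6AB-/- siTNRC6C, where the gene total was highest. Its share was not called in any comparison. MBNL3-205 likewise kept 68.5 to 84.9% of MBNL3 reads in all libraries while the gene total varied 5.75-fold between groups, and it was not called.

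Inclusion of single exons was estimated from TPM, since junction reads were not analysed here. It is the TPM of annotated transcripts that contain the exon, as a percentage of the TPM of those that contain it or skip it whole (spanning TPM). Transcripts with a different exon that overlaps it were not counted. Of 38 testable member exons, limma called 5 in TNRC6A-/- against wild type, beside 5.20% of all exons tested. They lay in MBNL1, MBNL2 and PTBP1. The 54-nt exons of MBNL1 and MBNL2, printed above, moved in opposite directions.

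The MBNL1 54-nt exon was included at 36.1, 43.5 and 39.3 percent in wild type and 27.8, 30.4 and 32.6 percent in TNRC6A-/- (log2 odds -0.58 ± 0.16, limma adjusted p = 0.0377). The MBNL2 54-nt exon was at 29.4, 32.5 and 27.2 percent in wild type and 44.8, 42.5 and 41.6 percent in TNRC6A-/- (log2 odds 0.82 ± 0.19, limma adjusted p = 0.0153). In both genes this exon is known to affect nuclear localization of the protein, and in MBNL2 its inclusion rests on a single transcript, MBNL2-206, annotated as a target of nonsense-mediated decay; MBNL2-205, in which it is an end exon, was not counted. The PTBP1 57-nt exon rose from 2.69, 2.96 and 5.03 percent to 10.99, 9.21 and 12.6 percent (log2 odds 1.53 ± 0.28, limma adjusted p = 0.00330). Its 21-base longer neighbour of 78 nt was at 40.5, 40.6 and 40.9 and 47.8, 44.9 and 44.2 percent and did not pass the test (limma adjusted p = 0.239). Forms with the 78-nt exon were not counted for the 57-nt exon, nor the reverse, so the percentages of these exons have different totals.

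The remaining calls in TNRC6A-/- were the MBNL1 36-nt exon (76.6 against 68.3%, limma adjusted p = 0.0250) and the MBNL1 95-nt exon (82.2 against 89.3%, limma adjusted p = 0.0486), and the latter turned to an increase on read shares (log2 odds 0.32, limma adjusted p = 0.379). None of the 5 was called from the 6 compared libraries alone (limma adjusted p 0.137 to 0.254). The MBNL2 54-nt call was also lost without wild-type replicate 3 (limma adjusted p = 0.0609) or TNRC6A-/- replicate 1 (0.0582), and the MBNL1 54-nt call without wild-type replicate 2 (0.152) or 3 (0.0823) or TNRC6A-/- replicate 1 (0.135) or 2 (0.0773), and on read shares. The MBNL1 36-nt call was lost on read shares and without wild-type replicate 2 (limma adjusted p = 0.0823) or 3 (0.0909) or TNRC6A-/- replicate 1 (0.1097) or 2 (0.0555), and the 95-nt call without any 1 of the 6 libraries (0.0605 to 0.126). The same fragment-length gap as above accompanies these exons.

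**Figure D4:**
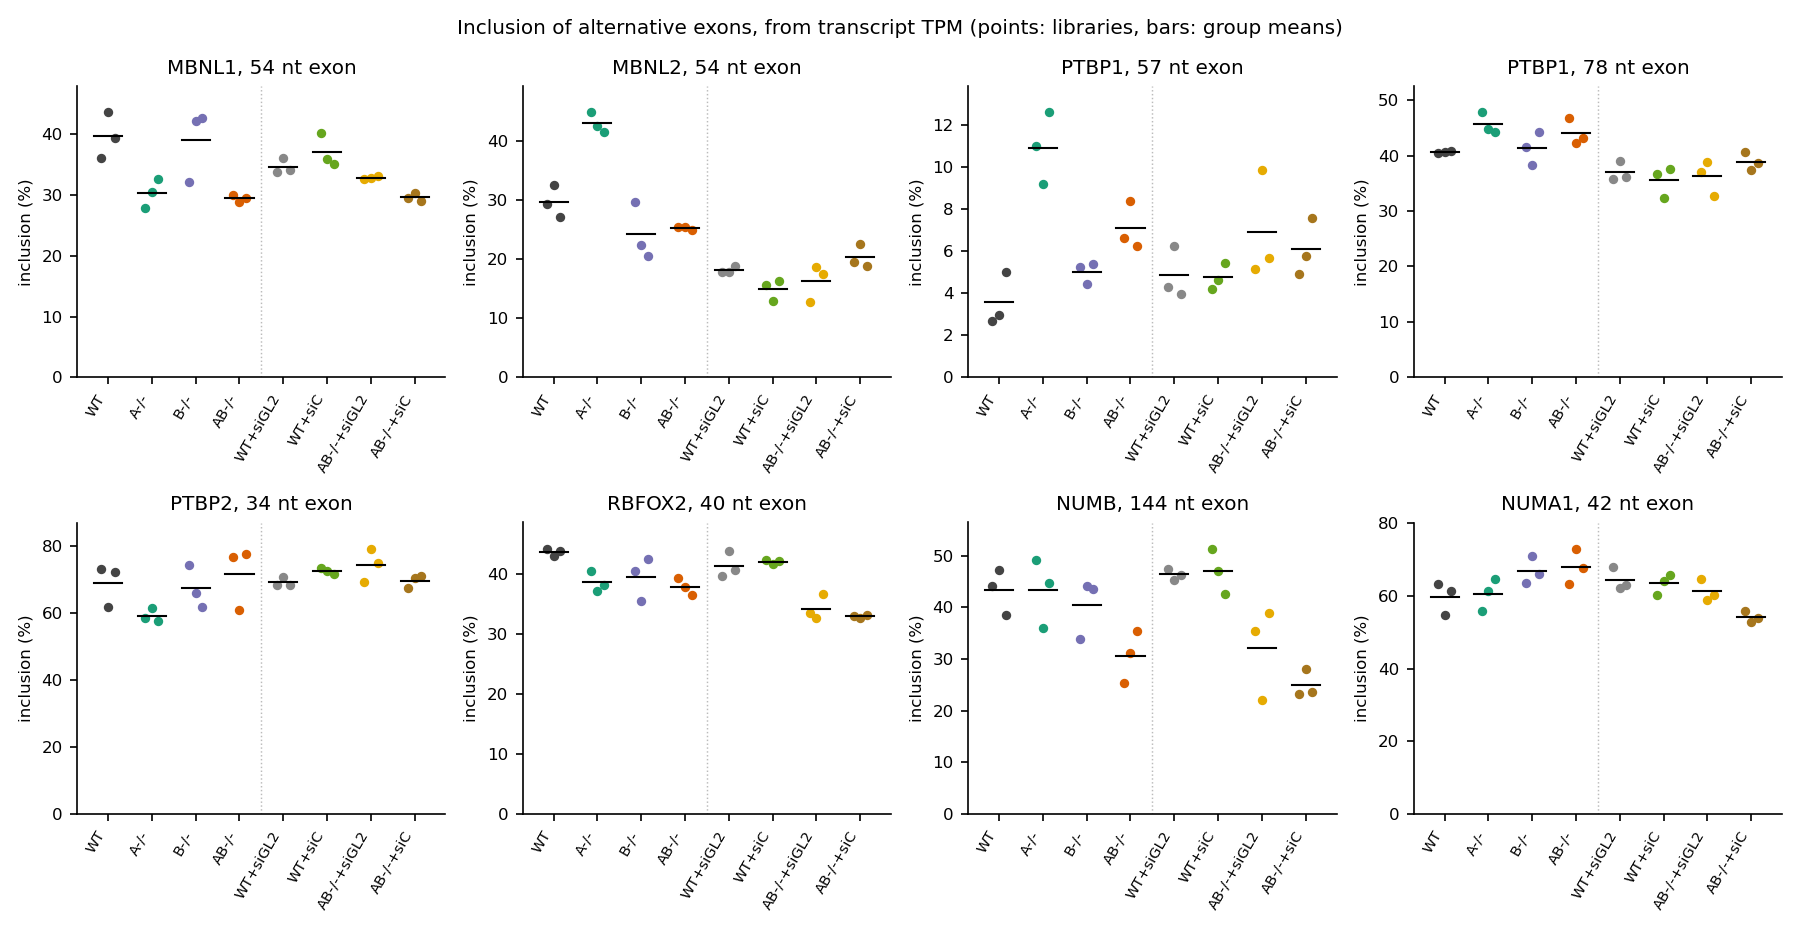
Inclusion (vertical axis, percent of spanning TPM, from 0) of 6 member exons and of the target exons in NUMB and NUMA1 in each library, by group (horizontal axis). Points are libraries and bars group means (n = 3): the MBNL2 54-nt exon was at 41.6 to 44.9% in TNRC6A-/- and below 33% in every other library, and the RBFOX2 40-nt exon was at 32.7 to 33.2% in AB-/- siC against 39.7 to 43.9% in WT siGL2.

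In TNRC6AB-/- cells with siTNRC6C, 1 RBFOX2 exon passed the test. The 40-nt exon of RBFOX2 was included at 39.7, 43.9 and 40.6 percent in wild type siGL2 and 32.9, 32.7 and 33.2 percent in TNRC6AB-/- siTNRC6C (log2 odds -0.51 ± 0.12, limma adjusted p = 0.0257), the 1 call among 38 member exons beside 2.59% of all exons. It stood at 33.4, 32.6 and 36.6 percent in TNRC6AB-/- siGL2, also without overlap, but did not pass the test (limma adjusted p = 0.119). The call was lost without wild type siGL2 replicate 2 (limma adjusted p = 0.119) or any 1 TNRC6AB-/- siTNRC6C library (0.0691 to 0.0867), in the fit of the 6 compared libraries (0.133), and on shares of estimated reads.

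Target exons of these regulators were read beside them. The NUMB alternative exon was included at 47.4, 45.4 and 46.4 percent in wild type siGL2, 35.4, 22.0 and 38.9 percent in TNRC6AB-/- siGL2 and 23.2, 28.0 and 23.6 percent in TNRC6AB-/- siTNRC6C. The last group was below the control (log2 odds -1.35 ± 0.27, limma adjusted p = 0.0119), a call lost without TNRC6AB-/- siTNRC6C replicate 1 (0.0547) or 3 (0.0516). In untransfected TNRC6AB-/- cells it was at 25.3, 31.1 and 35.5 percent against 44.1, 47.3 and 38.6 percent in wild type (limma adjusted p = 0.253). No other target exon was called by limma in any comparison. The mutually exclusive exons of PKM, a standard readout of PTBP1, stayed at 89.0 to 93.2% and 6.71 to 10.8% in all libraries.

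The 34-nt exon of PTBP2 whose skipping depends on PTBP1 was included at 57.6 to 79.2% in all libraries and was not called in any comparison. It was lowest in TNRC6A-/-, at 58.5, 61.4 and 57.6 percent against 73.3, 61.9 and 72.2 percent in wild type (limma adjusted p = 0.208). The NUMA1 42-nt exon was at 55.9, 52.8 and 53.95 percent in TNRC6AB-/- siTNRC6C against 68.0, 62.2 and 63.1 percent in wild type siGL2 (limma adjusted p = 0.0974). For the other comparisons limma called 0 of the 38 member exons: 3 were at an unadjusted p below 0.05 in TNRC6B-/- (0.0417% of all exons called), 7 in TNRC6AB-/- (0.890%), 6 in TNRC6AB-/- siGL2 (0.385%), 0 for siTNRC6C in wild type (0.00%) and 0 for siTNRC6C in TNRC6AB-/- (0.0139%).

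The members were set beside 71 other listed splicing regulators, of which 67 were tested. In TNRC6AB-/- 13 of these rose and 5 fell, or 26.9% called beside 29.4% of all genes. Against wild type siGL2, 9 rose and 7 fell in TNRC6AB-/- siGL2 (23.9% beside 21.7%). Against the same control, 10 rose and 24 fell in TNRC6AB-/- siTNRC6C (50.7% beside 42.2%). In that last comparison their median log2 fold change was -0.12, against 0.11 for the 10 members. HNRNPC, a general nuclear RNA-packaging protein, had a mean of 978 CPM in wild type siGL2 and 544 CPM in TNRC6AB-/- siTNRC6C (log2 fold change -0.85 ± 0.12, edgeR adjusted p = 4.96e-06). NOVA2, a neural splicing factor, had 19.4 and 3.88 CPM (log2 fold change -2.32 ± 0.19, edgeR adjusted p = 2.26e-09), and RBMS1 had 36.1 and 81.2 CPM (log2 fold change 1.17 ± 0.09, edgeR adjusted p = 7.65e-10). RBMS3 (0.875 and 5.65 CPM), ELAVL3 (0.318 and 1.28 CPM) and TIA1 (81.5 and 115 CPM) also stood higher in TNRC6AB-/- siTNRC6C. In TNRC6A-/- 3 of the 67 rose and 10 fell (19.4% beside 14.0% of all genes), and in TNRC6B-/- 3 rose and 1 fell (5.97% beside 3.14%). With siTNRC6C in TNRC6AB-/- against siGL2, 1 rose and none fell (1.49% beside 6.56%). With siTNRC6C in wild type edgeR called none, beside 0.932% of all genes, with the median at 0.10.

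Across the 24 libraries and 11762 genes compared, the gene whose level was most like that of RBFOX2 was FUT4 (Pearson r = 0.968 across libraries), and CELF1 was most like RBFOX2 itself (r = 0.952). PTBP1 was most like RAVER1 (r = 0.946), a known PTBP1 partner, QKI most like DENND1B (r = 0.920), MBNL3 most like ENC1 (r = 0.923) and RBM47 most like MARVELD3 (r = 0.938). These are descriptions over libraries that share groups, transfection and depth.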

How the data were processed

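RNA-seq of 24 HCT116 libraries in 8 groups was analysed from per-library transcript tables. According to the labels and the submitters' processing notes, the authors made the estimated counts and the TPM values of these deposited tables with Salmon 0.11.0; the notes also name STAR 2.5.3a, DESeq2 and hg38. Estimated counts were joined to GENCODE 29 (199368 of 199612 transcripts), summed per gene, rounded and tested in 1 model of all 8 groups with edgeR 4.0.16 (quasi-likelihood F test, trimmed mean of M-values, Benjamini-Hochberg adjustment over 24153 genes, threshold 0.05). Transcript usage was tested in edgeR on 86134 transcripts, with 1 pseudo-read, and exon inclusion with limma 3.58.1 on log2 odds of 21571 exons with a mean spanning TPM of at least 1, a mean inclusion of 5 to 95% and a pseudocount of 0.01. The gene, transcript usage and exon inclusion fits, but not the other steps, were tested on simulated data with a fixed spread. Length-scaled counts are TPM times mean transcript length. Alternatives included DESeq2 1.42.0, limma voom, other filters and libraries left out in turn. The members, gene lists and tests were chosen with earlier results of these data known. Named were all members, their main transcripts and those with a mean share of at least 10% of gene TPM, tested member exons, listed target exons, the gene most alike to a member, and up to 6 other regulators with the smallest adjusted p. Called transcripts below that share, and the printed microRNA sites, were chosen after their values were seen.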

Additional observations from a re-analysis of the deposited data

Results flagged for a closer look

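Differences between groups in the effect of the same manipulation were called for 2 members. For RBM47, the siTNRC6C effect in TNRC6AB-/- cells minus that in wild type was -0.88 ± 0.20 (SE) on the log2 scale (edgeR adjusted p = 0.0206), with all 3 siTNRC6C libraries below siGL2 in TNRC6AB-/- and all 3 above siGL2 in wild type. That call, beside 3.03% of all genes, was lost on length-scaled counts (edgeR adjusted p = 0.143) and in 8 of 12 fits that left out 1 library. For MBNL2, the TNRC6AB-/- effect minus the sum of the single-knockout effects was 0.74 ± 0.16 (SE) on the log2 scale (edgeR adjusted p = 0.00328), beside 7.75% of all genes called.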

How the results depend on the processing

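Counts of called members moved with the libraries that set the spread. The shares of all genes, transcripts or exons called under the alternative fits are not given here, so their counts stand without a background. With only the 6 compared libraries in the model, edgeR called 0 members in TNRC6A-/- (2 with all libraries), 0 in TNRC6B-/- (2), 2 for siTNRC6C in wild type (0) and 8 for siTNRC6C in TNRC6AB-/- (4), 7 transcripts in TNRC6A-/- (12), 0 in TNRC6B-/- (1) and 0 in TNRC6AB-/- (3), and limma 0 exons in TNRC6A-/- (5) and 0 in TNRC6AB-/- siTNRC6C against wild type siGL2 (1). limma voom called 1 member in TNRC6B-/-, 1 and 7 for siTNRC6C in wild type and in TNRC6AB-/-, 6 for the difference between those effects (1 by edgeR) and 2 for the difference with transfection (0), where DESeq2 also called 2. Without the count filter these 2 differences gave 2 and 1 members, and length-scaled counts gave 0 for the first and 1 member in TNRC6B-/-. A log2 fold change beyond 0.6 left 0 members in TNRC6A-/-, 1 in TNRC6B-/-, 2 in TNRC6AB-/- siGL2 (4), 2 for siTNRC6C in TNRC6AB-/- and 3 in TNRC6AB-/- siTNRC6C against wild type siGL2 (6). Among transcripts, a 5 percent share minimum left 0 in TNRC6B-/-, and limma on TPM shares left 0 in TNRC6AB-/- siGL2 (3) and 3 with siTNRC6C (5). Among exons, no TPM filter left 3 in TNRC6A-/-, a TPM minimum of 5 and read shares each gave 1 in TNRC6AB-/- (0), and read shares gave 2 with siTNRC6C, both in MBNL1 and neither of them the RBFOX2 40-nt exon, and turned the MBNL1 95-nt exon in TNRC6A-/- from -0.81 to 0.32. The cause was not tested.

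Leaving out 1 library gave 1 to 3 members in TNRC6A-/-, 2 to 3 in TNRC6B-/-, 5 to 6 in TNRC6AB-/-, 3 to 4 in TNRC6AB-/- siGL2, 2 for siTNRC6C in TNRC6AB-/-, 5 to 6 against wild type siGL2, 0 to 1 for the siTNRC6C difference, 0 to 2 for the transfection difference, 1 to 2 for the double against the single knockouts and 9 to 10 among the 8 groups. It gave 7 to 13, 0 to 3, 0 to 5, 1 to 2 and 4 to 8 transcripts in TNRC6A-/-, TNRC6B-/-, TNRC6AB-/-, TNRC6AB-/- siGL2 and TNRC6AB-/- siTNRC6C against wild type siGL2, and 1 to 4 exons in TNRC6A-/- and 0 to 1 in the last. Deviations of same-numbered libraries from their group means correlated from -0.233 to 0.541 over genes. The highest values were those of replicates 1 (0.403) and 3 (0.541) in TNRC6AB-/- siGL2 against wild type siGL2. Whether the replicate numbers pair the samples was thus not settled, and the main model left them out. With the replicate number as a block, 3 members were called for siTNRC6C in TNRC6AB-/-, 0 transcripts in TNRC6B-/-, 11 in TNRC6A-/- and 2 in TNRC6AB-/- siGL2, and 4 exons in TNRC6A-/-, and the other counts were the same.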
